A study of Mus musculus with 7 samples.

Results

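The Notch pathway was followed through 10 genes in mouse embryonic fibroblasts (MEFs) undergoing direct reprogramming towards cardiac muscle. They were the receptors Notch1, Notch2 and Notch3, the ligands Jag1 and Dll1, the atypical ligand Dlk1, and the target genes Hes1, Hey1, Hey2 and Heyl. They were picked by gene symbol from 19505 named genes on the Clariom S mouse array, and each was read by 1 probe set. The choice was made with earlier results of these data known, so counts among the 10 are not those of an unselected set.

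Notch receptors are cleaved when a ligand of the Jagged or Delta family on a neighbouring cell binds them. The released intracellular part enters the nucleus, joins the DNA-binding protein RBPJ and switches on genes that include the Hes and Hey repressors. In the heart the pathway is known for patterning valves, chambers and vessels, and the Hey factors for repressing cardiac genes outside their proper domain. Dlk1 lacks the domain with which canonical ligands bind Notch and is best known for holding back the differentiation of preadipocytes.

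Each group was 1 array of RNA from a cell culture. The siEp300 and siCtrl cells were transduced and also received short inhibitory RNA, called siRNA, with Ep300 as its target, which encodes the acetyltransferase p300, or a control siRNA. The labels disagree on these 2 arrays: their titles give GT/M2 and their source names give GT/M2TAD, so they are called only siEp300 and siCtrl. GT/M2TAD cells received retroviruses for Gata4, Tbx5 and isoform 2 of Mef2c fused to MyoD's transactivation domain. GT/M6, GT/M2 and GT/M1 cells received Gata4, Tbx5 and isoform 6, 2 or 1 of Mef2c. MEF cells were untreated fibroblasts, with no virus. The protocols give collection at 1 week for transduced cells, and no separate time for the untreated ones. Neither the age or strain of the embryos nor the share of cells that took up virus was given in the sources used here.

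Values are signals on the log2 scale as deposited, and differences are log2 differences between 2 arrays. With 1 array per group there is no spread between replicates, so no difference has an error or a test, and the order of neighbouring arrays cannot be told from chance. A gene is called apart when its signals differ by at least 1 (2-fold) and the higher signal reaches the floor, which is that array's median over all named genes (5.38 to 5.70). The background mark of an array is the signal below which 95% of its 5222 negative-control probes lie (8.43 to 9.33). On each array 23.7% to 29.6% of all named genes reached that mark. Of the 10 genes, 3 reached the mark on at least 1 array: Notch2 on 7 arrays, Jag1 on 4 and Dlk1 on 1. The other 7 stayed under it on every array, so the sizes of their differences rest in part on background. In these bulk RNA samples, fewer cells expressing a gene and less RNA per cell cannot be told apart.

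Markers were read to check the labels. All 7 measured fibroblast markers lay above the background mark on MEF. On the transduced arrays 6 or 7 of them did. By the 2-fold rule 5 or 6 of the 7 were lower than on MEF on GT/M2TAD, GT/M6, GT/M2 and GT/M1, against 0 on siEp300 and siCtrl. On each of siEp300, siCtrl and GT/M2TAD 1 was higher, and on GT/M6, GT/M2 and GT/M1 0 were. No endothelial marker of 9 measured lay above the background mark on any array, and endothelial cells are a main site of Notch activity in tissue. Of 7 cardiac muscle markers, 4 lay above the mark on siEp300 and siCtrl and 5 on each of GT/M2TAD, GT/M6, GT/M2 and GT/M1, against 0 on MEF. Ep300 itself had a signal of 9.47 on siEp300 against 9.90 on siCtrl, a difference of -0.43, under 2-fold. Tbx5 and Mef2c were at 14.82 or more on each transduced array, against 5.72 and 8.24 on MEF, whereas the Gata4 probe set was under the background mark on all 7 arrays.

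Against untreated fibroblasts the pattern was lower Jag1, Dlk1, Notch1, Hey1 and Hey2, and higher Notch3, on every transduced array. Of these 6 genes only Jag1 and Dlk1 reached the background mark on any array, and with that mark as the floor they were the 2 genes apart in each comparison. Among negative-control probes that reached the lower floor, 37.5% to 46.3% passed the same 2-fold rule in these comparisons. By the 2-fold rule 6 of the 10 genes were apart on siEp300 (22.7% of all named genes were), 7 on siCtrl (21.8%), 6 on GT/M2TAD (23.5%), 6 on GT/M6 (21.8%), 6 on GT/M2 (21.9%) and 7 on GT/M1 (22.0%). Most of these were lower: 5 on siEp300 (9.29% of named genes), 6 on siCtrl (10.9%), 5 on GT/M2TAD (9.50%), 5 on GT/M6 (8.79%), 5 on GT/M2 (8.34%) and 6 on GT/M1 (9.52%). The same 5 genes, Notch1, Jag1, Dlk1, Hey1 and Hey2, were lower on all 6 arrays, as were 4.74% of named genes. Notch3 alone among the 10 was higher on all 6, as were 6.28% of named genes. The median over the 10 genes lay between -1.56 and -1.21 in the 6 comparisons, and the median over all named genes between 0.012 and 0.124. Only 8 of the 10 genes reached the floor in these comparisons, or 9 on siCtrl, so Dll1, and Heyl on all but siCtrl, could not be called. The 6 comparisons share the MEF array, so they are not independent of each other, and infection and time in culture cannot be told apart from the factors.

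**Figure D1:**
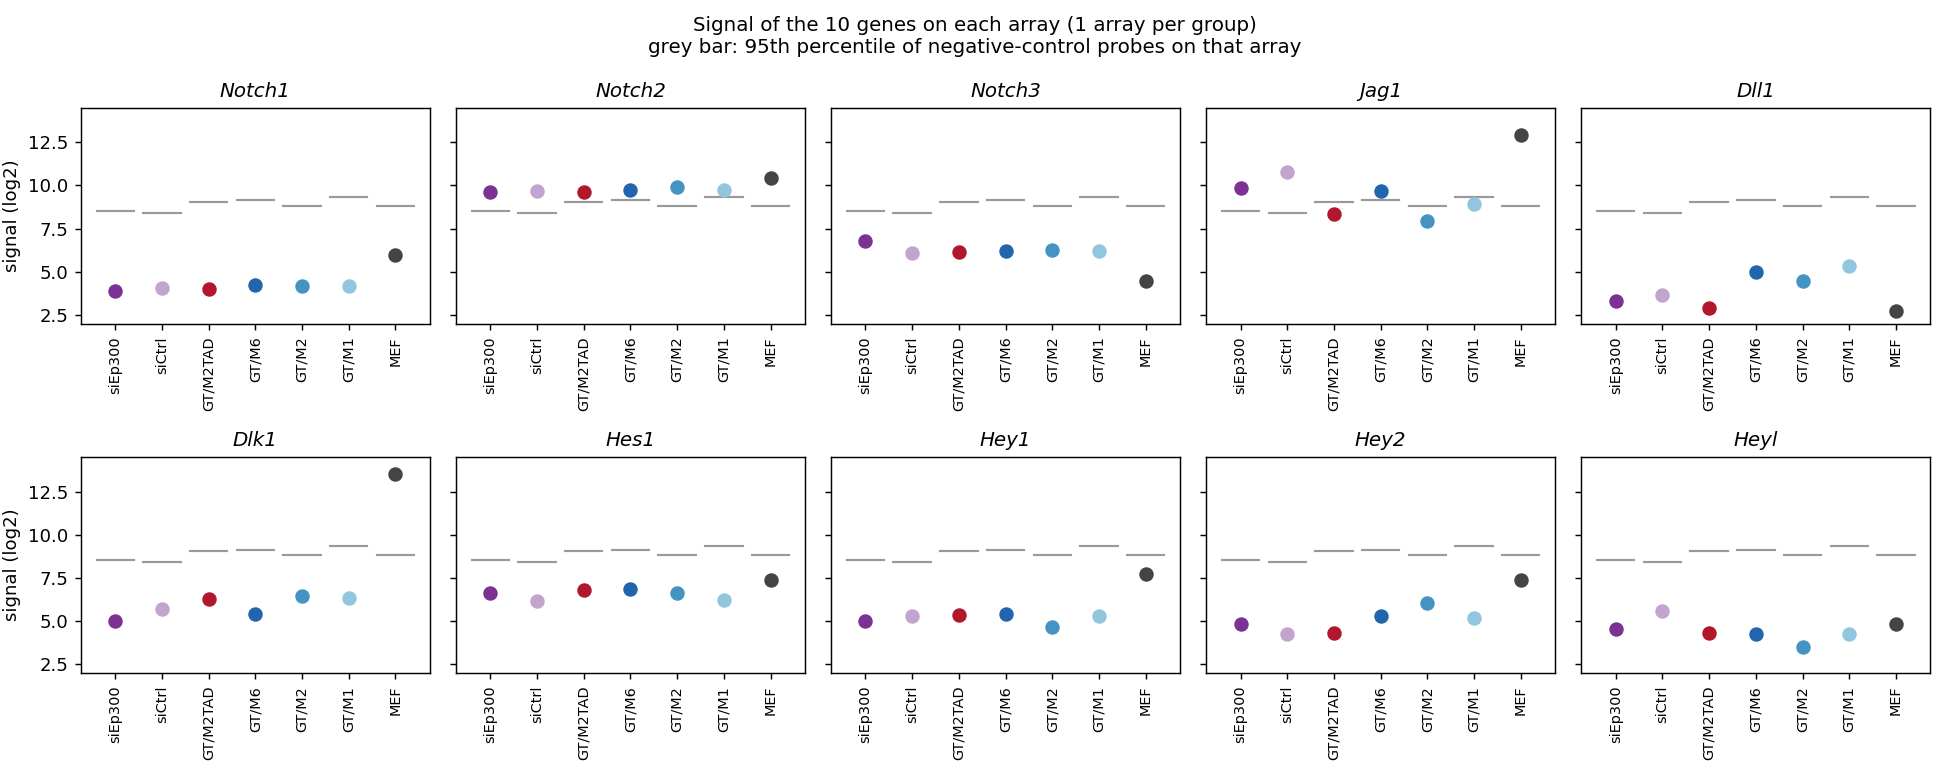
Signal (log2, vertical axis) of each of the 10 genes on the 7 arrays, 1 point per array; the grey bars are the arrays' background marks, the 95th percentile of negative-control probes. Jag1 and Dlk1 stand at 12.92 and 13.54 on MEF and lower on every transduced array, Notch2 stays above the bars throughout, and the other 7 genes stay under them.

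Among the ligands, Dlk1 showed the largest difference of the 10 genes. Dlk1 encodes a membrane protein that is also shed, and in MEFs it was far above background. Its signal was 5.04 on siEp300, 5.71 on siCtrl, 6.31 on GT/M2TAD, 5.44 on GT/M6, 6.45 on GT/M2 and 6.32 on GT/M1, against 13.54 on MEF. The 6 transduced arrays lay within 1.41 of each other, all under the background mark, and the gap from the highest of them to MEF was 7.09. The difference from MEF was -8.50 on siEp300, the lowest of all 19505 named genes in that comparison. It was -7.83 on siCtrl, -7.23 on GT/M2TAD, -8.10 on GT/M6, -7.09 on GT/M2 and -7.22 on GT/M1, where Dlk1 ranked between place 2 and place 10 from the lowest. With the transduced signals under the mark, the size of these differences rests in part on background.

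Jag1, the Jagged ligand that signals to Notch receptors on adjacent cells, was lower on every transduced array and had the widest range of the 10 genes among those arrays. Its signal was 9.82 on siEp300, 10.77 on siCtrl, 8.37 on GT/M2TAD, 9.68 on GT/M6, 7.96 on GT/M2 and 8.94 on GT/M1, against 12.92 on MEF. The siRNA arrays stood highest among the transduced arrays and GT/M2 lowest, a span of 2.81. On siEp300, siCtrl, GT/M6 and MEF the signal was above the background mark, and the gene was 8.60-fold lower than on MEF on siEp300 (-3.10), 4.43-fold on siCtrl (-2.15) and 9.45-fold on GT/M6 (-3.24). On the other arrays it was under the mark, so the differences of -4.55 on GT/M2TAD, -4.96 on GT/M2 and -3.98 on GT/M1 rest in part on background.

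Fibroblast markers and markers of pericytes and smooth muscle, cells in which Jagged and Notch3 signalling is well known, differed beside Jag1. The median difference of 7 fibroblast markers from MEF was -0.17 on siEp300, 0.06 on siCtrl, -1.90 on GT/M2TAD, -1.76 on GT/M6, -2.55 on GT/M2 and -2.62 on GT/M1. Col1a2, a collagen I chain, had a signal of 15.10 on siEp300, 15.26 on siCtrl, 11.36 on GT/M2TAD, 13.01 on GT/M6, 10.5 on GT/M2 and 12.12 on GT/M1, against 15.20 on MEF. The summed fibroblast signal, carried mostly by Vim and Fn1, spanned less, between 19.05 and 19.90 on transduced arrays against 19.83 on MEF. Not all fibroblast markers were lower. Postn was 15.25 on siEp300 and on siCtrl, against 11.80 on MEF, and Thy1 was 15.15 on GT/M2TAD, against 13.49 on MEF.

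The median difference of 10 pericyte and smooth muscle markers from MEF was -0.29 on siEp300, -0.27 on siCtrl, -0.89 on GT/M2TAD, -1.23 on GT/M6, -2.25 on GT/M2 and -1.73 on GT/M1. Of these markers 6 lay above the background mark on siEp300, 6 on siCtrl, 5 on GT/M2TAD, 4 on GT/M6, 3 on GT/M2 and 3 on GT/M1, against 6 on MEF. Their summed signal, carried mostly by Acta2, was between 18.32 and 19.86 on transduced arrays against 20.01 on MEF. The markers did not all run one way: Myh11, the smooth muscle myosin, was 12.01 on siEp300 and 12.26 on siCtrl, against 9.80 on MEF. The pericyte markers Rgs5, Kcnj8, Abcc9 and Higd1b were under the mark on all arrays. The part of these cells in the Jag1 signal was not tested.

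The genes whose profile over the 7 arrays was most like that of Jag1 were Col6a2 and Col6a1, which encode collagen VI chains, and Igf2, a growth factor of embryonic tissue. Likeness was the root mean square difference between profiles after each gene's mean was subtracted, over 6390 genes that reached the background mark on at least 1 array. It was 0.271 for Col6a2, 0.358 for Col6a1 and 0.375 for Igf2 on the log2 scale, and Pearson's r over the 7 arrays, which share 1 normalization and are ordered largely by MEF, was 0.985, 0.973 and 0.973 in that order. Col6a2 had a signal of 8.92 on siEp300, 9.01 on siCtrl, 7.40 on GT/M2TAD, 8.23 on GT/M6, 6.76 on GT/M2 and 7.64 on GT/M1, against 11.73 on MEF. Col6a2 was above the mark on 3 arrays and Col6a1 on 1, MEF, so their likeness rests in part on MEF against background. For Dlk1 the closest genes lay further away, Foxs1 at 0.787, Rrm2 at 0.811 and Mybl2 at 0.833. Foxs1 and Mybl2 were above the mark on MEF alone, as Dlk1 was, so this likeness is set by MEF. For Notch2 they were close, Naa15 at 0.039, Ddx3x at 0.070 and Rab23 at 0.070, around a profile that itself spans little.

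**Figure D2:**
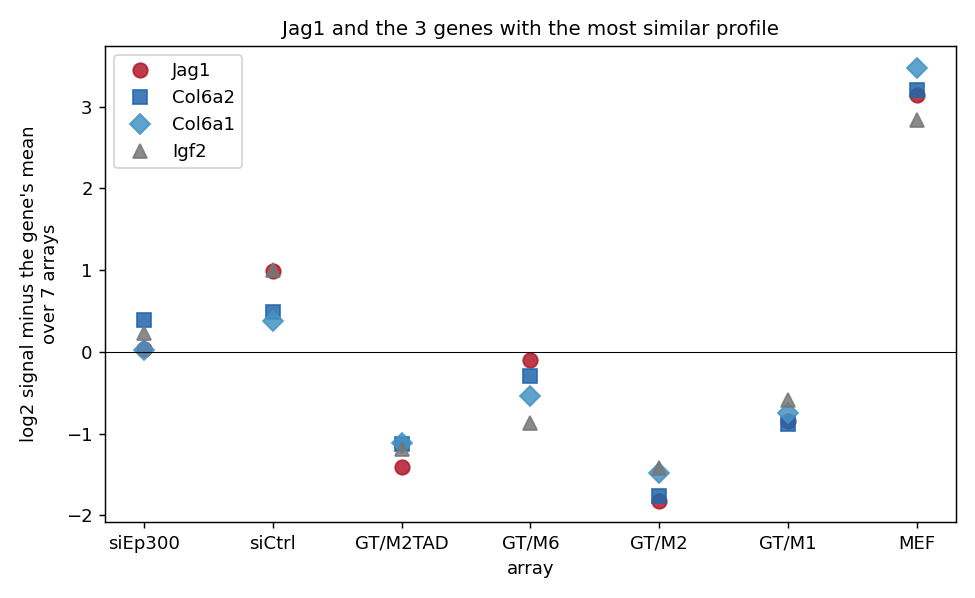
Log2 signal of Jag1, Col6a2, Col6a1 and Igf2 on the 7 arrays, each gene with its own mean over the arrays subtracted, 1 point per gene and array. MEF stands highest for all 4 genes and GT/M2 lowest, with siCtrl above the other transduced arrays.

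The upstream sequences of Jag1 and Dlk1 are shown because these were the ligands with the largest differences. They are taken from RefSeq on GRCm38.p6, where 7 of the 10 genes had a window from 250 bases before to 50 after an annotated start, Dll1 with 2 windows. Each is written 5′ to 3′ on the gene's own strand and stops at the start. Jag1 is on the minus strand at chr2:137116521-137116770, and capitals mark the class C box CACGCG, letters that Hes and Hey proteins are known to bind, on either strand. Dlk1 is on the plus strand at chr12:109452573-109452822, and capitals mark AGGTGT, the core of T-box sites, and GATAA, a core of GATA sites.
Jag1: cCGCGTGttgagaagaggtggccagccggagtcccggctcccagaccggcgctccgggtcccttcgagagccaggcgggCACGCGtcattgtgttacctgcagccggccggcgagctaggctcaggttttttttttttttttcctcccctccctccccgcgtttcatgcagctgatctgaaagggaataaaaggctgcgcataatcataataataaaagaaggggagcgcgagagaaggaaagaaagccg
Dlk1: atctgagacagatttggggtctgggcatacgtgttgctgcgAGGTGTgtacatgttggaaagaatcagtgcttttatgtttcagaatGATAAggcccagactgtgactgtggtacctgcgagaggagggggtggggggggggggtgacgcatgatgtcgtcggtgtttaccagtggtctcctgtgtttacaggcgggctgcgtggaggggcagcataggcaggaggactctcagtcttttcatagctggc
The Jag1 window held CACGCG 2 times, and 9.27% of all 32851 windows of this length held it at least once on either strand. AGGTGT and GATAA were each present 1 time in the Dlk1 window and in 13.7% and 25.4% of all windows. CACGCG was also present 1 time in the Notch2 window and in 1 of the 2 Dll1 windows, and GATAA in the Notch3 window. None of the 8 windows of these genes held a MEF2 box, which 1.86% of all windows did. The E-box CACGTG was also searched and was in none of them, against 7.15% of all windows. These matches describe letters and not binding.

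Dll1, the Delta ligand best known from somite segmentation, ran the other way but at signals deep in background. Its signal was 3.30 on siEp300, 3.66 on siCtrl, 2.92 on GT/M2TAD, 5.0 on GT/M6, 4.44 on GT/M2 and 5.31 on GT/M1, against 2.75 on MEF. The 3 native isoforms stood above the other 4 arrays, and no array reached the floor. On GT/M1, the highest, the signal was above 48.7% of that array's negative-control probes, and on MEF above 6.2% of them. The differences from MEF, 2.25 on GT/M6, 1.69 on GT/M2 and 2.56 on GT/M1, are therefore not called. On GT/M2TAD the difference was 0.16, and -0.09 after median centring.

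The receptors differed from each other in direction. Notch2, the only receptor above the background mark, was a little lower with transduction. Its signal was 9.62 on siEp300, 9.70 on siCtrl, 9.59 on GT/M2TAD, 9.74 on GT/M6, 9.90 on GT/M2 and 9.74 on GT/M1, against 10.41 on MEF. The transduced arrays spanned 0.31 and the nearest lay 0.52 under MEF. All 6 differences, -0.83 to -0.52, were under 2-fold; on GT/M2TAD the difference was past 2-fold after quantile normalization (-1.01) and median centring (-1.08), and on GT/M6 and siEp300 after median centring (-1.0 and -1.03).

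Notch1, the receptor mutated in T cell leukaemia and also needed for valve and trabecular development, was lower on each transduced array. Its signal was 3.89 on siEp300, 4.08 on siCtrl, 4.0 on GT/M2TAD, 4.23 on GT/M6, 4.16 on GT/M2 and 4.17 on GT/M1, against 5.96 on MEF. The 6 transduced arrays lay within 0.34 and MEF stood 1.74 above the highest. Differences ran from -2.08 on siEp300 to -1.74 on GT/M6. The MEF signal was above 69.3% of negative-control probes and the transduced signals above 23.6% to 35.3%, so the gene was within background on all 7 arrays.

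Notch3, the receptor of vascular smooth muscle and pericytes, was higher on each transduced array. Its signal was 6.77 on siEp300, 6.08 on siCtrl, 6.15 on GT/M2TAD, 6.2 on GT/M6, 6.27 on GT/M2 and 6.19 on GT/M1, against 4.48 on MEF. All arrays with the factors stood above MEF, the nearest by 1.60, and siEp300 stood highest. The differences from MEF were 2.29 on siEp300, 1.60 on siCtrl, 1.67 on GT/M2TAD, 1.72 on GT/M6, 1.79 on GT/M2 and 1.71 on GT/M1, and they kept to at least 1.4 under the other 3 scalings. The signals lay above 65.9% to 83.4% of negative-control probes on transduced arrays, against 38.9% on MEF. Among pericyte and smooth muscle markers, Myh11 was higher than on MEF on siEp300 and siCtrl and lower on the other 4. Kcnj8 was 6.03 on GT/M6, 6.95 on GT/M2 and 5.77 on GT/M1, against 4.58 on MEF, but 3.11 on siCtrl. Rgs5 was 7.36 on GT/M2TAD and 7.12 on GT/M2, against 5.87 on MEF, but 5.09 on siCtrl. Abcc9 was higher than on MEF on every transduced array, and Higd1b lay on both sides of MEF. These markers were all under the mark. Pdgfrb, Cspg4, Acta2, Cnn1 and Tagln were lower than on MEF on every transduced array. Pdgfrb was at 8.01 to 12.83 there, against 13.62 on MEF. The part of these markers in the Notch3 signal was not tested.

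Of the target genes, Hey1 and Hey2, repressors that act downstream of Notch in the atrioventricular canal and the ventricle, were lower on all 6 transduced arrays. Hey1 had a signal of 5.01 on siEp300, 5.29 on siCtrl, 5.37 on GT/M2TAD, 5.40 on GT/M6, 4.68 on GT/M2 and 5.29 on GT/M1, against 7.75 on MEF. The transduced arrays spanned 0.71 and the gap to MEF was 2.36. On MEF Hey1 was above 89.9% of negative-control probes, against 40.6% to 63.2% on the transduced arrays. Differences from MEF ran from -3.07 on GT/M2 to -2.36 on GT/M6.

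Hey2 had a signal of 4.86 on siEp300, 4.26 on siCtrl, 4.34 on GT/M2TAD, 5.29 on GT/M6, 6.03 on GT/M2 and 5.18 on GT/M1, against 7.37 on MEF. MEF stood above all transduced arrays, among which GT/M2 was highest and siCtrl and GT/M2TAD lowest. The differences from MEF were -2.51 on siEp300, -3.11 on siCtrl, -3.03 on GT/M2TAD, -2.08 on GT/M6, -1.34 on GT/M2 and -2.18 on GT/M1.

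The region upstream of Hey2 is shown because it holds the long form of the RBPJ site, CGTGGGAA, 2 times, in opposite directions. It is on the minus strand at chr10:30842781-30843033 (RefSeq, GRCm38.p6), written 5′ to 3′ from 250 bases before the start to 3 bases past it, with both matches in capitals.
Hey2: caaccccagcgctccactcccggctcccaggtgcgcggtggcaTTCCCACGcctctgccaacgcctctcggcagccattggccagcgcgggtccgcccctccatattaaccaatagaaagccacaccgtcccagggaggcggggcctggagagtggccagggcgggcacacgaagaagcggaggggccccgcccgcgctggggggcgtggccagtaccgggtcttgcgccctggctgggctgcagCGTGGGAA
CGTGGGAA was present at least 1 time, on either strand, in 0.734% of the 32851 windows, and 4 windows held it 2 times or more. It contains the shorter core TGGGAA, which 25.6% of windows held. Of the 7 genes with a window, Hey2 was the only one with either form. It was also the only target gene searched, since Hes1, Hey1 and Heyl had no window. The arrays measured RNA and not binding of RBPJ at these letters.

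Hes1, a target of Notch in most cell types and of other pathways too, differed less. Its signal was 6.66 on siEp300, 6.15 on siCtrl, 6.82 on GT/M2TAD, 6.85 on GT/M6, 6.62 on GT/M2 and 6.21 on GT/M1, against 7.39 on MEF. MEF was highest, by 0.54 over the nearest array. The difference reached 2-fold on siCtrl at -1.25 and on GT/M1 at -1.18. On GT/M2 it was -0.77 as deposited and -1.15 after quantile normalization, -1.09 after median centring and -1.11 after level-dependent centring.

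Heyl, the Hey relative of vascular smooth muscle, was the only 1 of the 10 genes for which MEF lay inside the range of the transduced arrays. Its signal was 4.55 on siEp300, 5.58 on siCtrl, 4.31 on GT/M2TAD, 4.24 on GT/M6, 3.50 on GT/M2 and 4.29 on GT/M1, against 4.83 on MEF. Only siCtrl reached the floor. MEF stood above all 6 transduced arrays for 7 of the 10 genes, against 21.2% of named genes, and below all 6 for Notch3 and Dll1, against 28.0% of named genes.

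**Figure D3:**
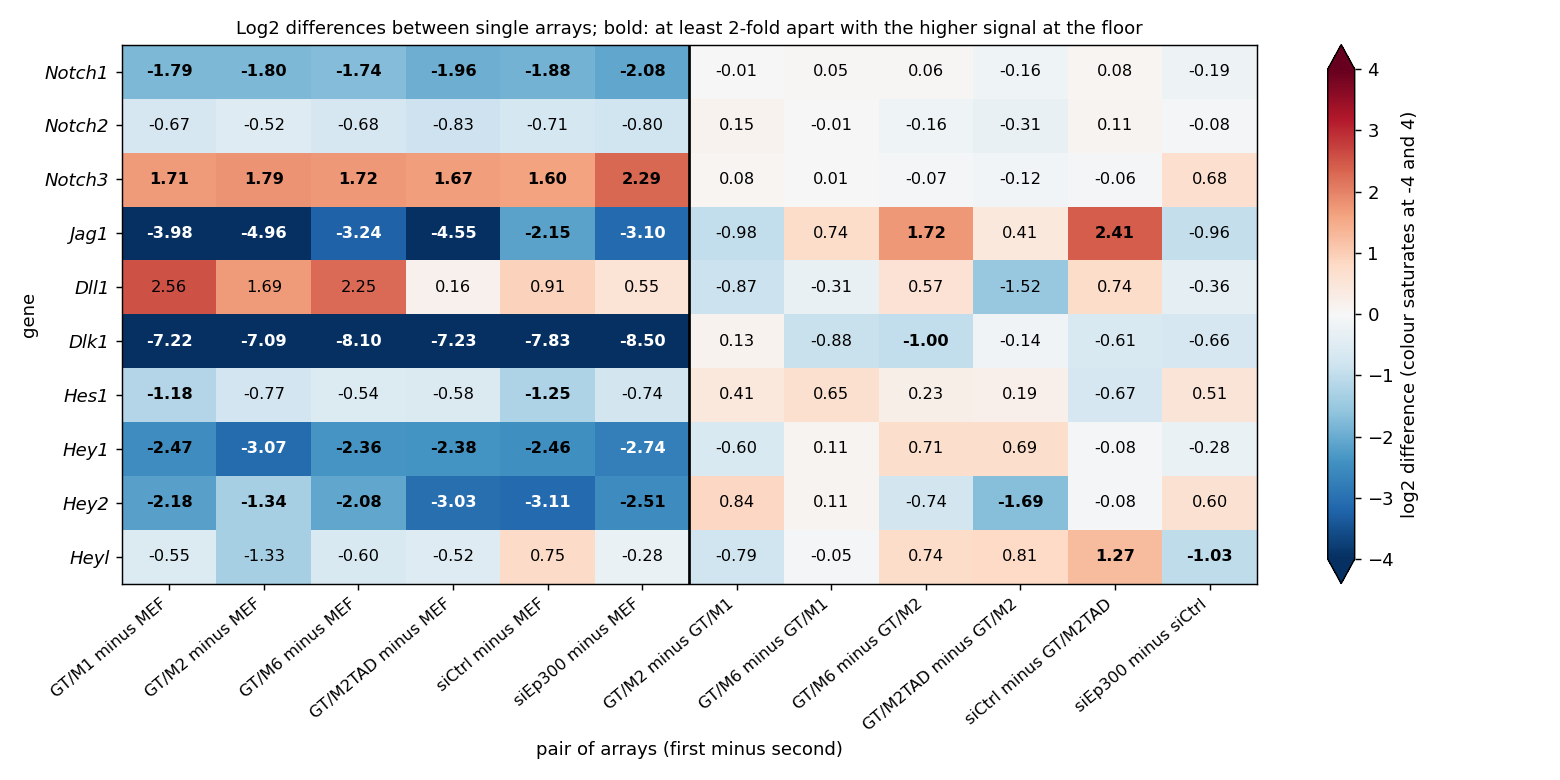
Log2 differences of the 10 genes (rows) for the 12 pairs of arrays (columns, first array minus second), with values in bold where the pair is at least 2-fold apart and the higher signal reaches the floor. The 6 columns against MEF hold 38 bold values, and the 6 columns between transduced arrays hold 6.

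The isoforms were compared to ask whether the form of Mef2c bears on these genes. Between GT/M2 and GT/M1, 0 of the 10 genes were apart, against 3.29% of named genes. The furthest was Jag1 at -0.98, which passed 2-fold after quantile normalization (-1.13) and level-dependent centring (-1.10). Between GT/M6 and GT/M1, 0 were apart, against 0.938% of named genes, with differences from -0.88 for Dlk1 to 0.74 for Jag1. Between GT/M6 and GT/M2, 2 were apart, against 3.56% of named genes. Jag1 was 9.68 on GT/M6 against 7.96 on GT/M2, a difference of 1.72 that rests in part on background, since the GT/M2 signal was under the mark. Fibroblast markers, 2 of 7, and pericyte and smooth muscle markers, 2 of 10, were also higher on GT/M6 by the 2-fold rule and none lower, and their part was not tested. Dlk1 was 5.44 on GT/M6 against 6.45 on GT/M2, at -1.0 just at the threshold, with both signals in background, and was under 2-fold after quantile normalization (-0.93) and level-dependent centring (-0.99).

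GT/M2TAD was set against GT/M2 to ask how the same isoform differed when it carried the MyoD domain. Hey2 was the 1 gene of the 10 that was apart, and 6.30% of named genes were. Its signal was 4.34 on GT/M2TAD against 6.03 on GT/M2, a difference of -1.69, with both signals under the background mark. In the same comparison 5 of 10 pericyte and smooth muscle markers were higher and 1 lower, 2 of 7 fibroblast markers higher and 1 lower, and 2 of 7 cardiac markers higher and 2 lower, and their part was not tested. Against the mean of GT/M6, GT/M2 and GT/M1 the difference was -1.16, and that mean, 5.5, no longer reached the floor. Dll1 was at -1.52, under the floor on both arrays. Jag1 at 0.41, Hey1 at 0.69 and Heyl at 0.81 were higher on GT/M2TAD by less than 2-fold, and Notch1, Notch2, Notch3, Dlk1 and Hes1 lay between -0.31 and 0.19.

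Notch1, Notch2, Dll1 and Hey2 were lower on siEp300, siCtrl and GT/M2TAD, the 3 arrays whose source names give the MyoD fusion, than on GT/M6, GT/M2 and GT/M1. This order, looked for after the values were seen, held for 4 of the 10 genes and for 14.3% of named genes. For Notch1 and Notch2 the 6 arrays together spanned only 0.34 and 0.31.

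siCtrl was set against GT/M2TAD because the source names give both the same factors. Jag1 and Heyl were apart, 2 of the 10 genes, against 9.42% of named genes. Jag1 was 10.77 on siCtrl against 8.37 on GT/M2TAD, a difference of 2.41 that rests in part on background, since the GT/M2TAD signal was under the mark. Heyl was 5.58 on siCtrl against 4.31 on GT/M2TAD, a difference of 1.27 with both signals in background. Over all named genes the median difference was -0.140. For Notch3 and Hey1, at -0.06 and -0.08, the sign was positive under the other 3 scalings, and for Hey2, at -0.08, under median centring. Jag1 and Heyl were also the genes for which both siRNA arrays stood above the 4 arrays without siRNA, as 14.9% of named genes did. By the 2-fold rule 5 of 7 fibroblast markers were higher and 1 lower on siCtrl than on GT/M2TAD, as were 5 and 1 of 10 pericyte and smooth muscle markers, 5 of 7 cardiac markers were lower, and Tbx5 was 14.83 on siCtrl against 16.14 on GT/M2TAD. Their part in the Jag1 difference was not tested.

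siEp300 was set against siCtrl to ask which genes differed with Ep300 siRNA; p300 is a coactivator that the Notch nuclear complex also recruits. Heyl was the 1 gene of the 10 that was apart, and 2.32% of named genes were. Its signal was 4.55 on siEp300 against 5.58 on siCtrl, a difference of -1.03, both under the background mark. Jag1 was 9.82 on siEp300 against 10.77 on siCtrl, both above it, and the difference of -0.96 was just under 2-fold. The median over all named genes was 0.142 in this comparison, and Jag1 was at -1.14 after quantile normalization, -1.12 after median centring and -1.15 after level-dependent centring, past 2-fold each time. Notch3 at 0.68, Hey2 at 0.60 and Hes1 at 0.51 were higher on siEp300, and Dlk1 at -0.66, Dll1 at -0.36, Hey1 at -0.28, Notch1 at -0.19 and Notch2 at -0.08 lower, all by less than 2-fold. In this comparison 0 of 7 fibroblast and 0 of 10 pericyte and smooth muscle markers were apart, and 1 of 7 cardiac markers was, Myh6 at 7.15 on siEp300 against 5.81 on siCtrl. Both Myh6 signals were under the background mark.

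The wider pathway was read from a list of 60 genes, the 10 above included, of which 57 were named on the array. In the list as a whole, 10 genes were higher and 7 lower on siEp300 than on MEF, 6 and 11 on siCtrl, 8 and 8 on GT/M2TAD, 12 and 8 on GT/M6, 8 and 9 on GT/M2, and 9 and 10 on GT/M1. Over all named genes the share that was higher was 13.4% on siEp300, 10.9% on siCtrl, 14.0% on GT/M2TAD, 13.0% on GT/M6, 13.6% on GT/M2 and 12.5% on GT/M1. The share of named genes that was lower ran from 8.34% on GT/M2 to 10.9% on siCtrl. In either direction, 28.1% to 35.1% of the measured list was apart from MEF, against 21.8% to 23.5% of named genes. Those shares of the list include the 10 genes, of which 6 or 7 were apart. Of the 47 others, 9 were higher and 2 lower on siEp300, 5 and 5 on siCtrl, and 7 and 3 on GT/M2TAD. The counts were 11 and 3 on GT/M6, 7 and 4 on GT/M2, and 8 and 4 on GT/M1. Without the 10 genes, 27 of 47 were apart from MEF on no transduced array, where 63.9% of named genes were not. Of the 47, Psen2 and Hes6 were higher on all 6 arrays (6.28% of named genes) and Lfng was lower on all 6 (4.74%). The list medians without the 10 genes lay between -0.01 and 0.32.

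Of 9 measured genes of the machinery that cleaves the receptors, 4 were higher than on MEF on siEp300, 3 on siCtrl, 3 on GT/M2TAD, 4 on GT/M6, 2 on GT/M2 and 2 on GT/M1, beside the 10.9% to 14.0% of all named genes given above. None of the 9 was lower by the 2-fold rule, and Furin, Adam17, Aph1a, Aph1b and Aph1c were apart on no array, with Furin at -0.61 to 0.42. Adam10, the protease that makes the outer cut, had a signal of 13.56 on siEp300, 13.23 on siCtrl, 14.21 on GT/M2TAD, 14.19 on GT/M6, 14.39 on GT/M2 and 14.03 on GT/M1, against 12.44 on MEF. It was above the background mark throughout and apart on all but siCtrl, where the difference was 0.79; on siEp300 it was 1.12, and 0.94 after quantile normalization and 0.89 after median centring. Nicastrin, Ncstn, and Psenen, both subunits of the gamma-secretase that makes the inner cut, were 0.67 to 1.42 and 0.91 to 1.54 higher. Psen2, a catalytic subunit of the same complex, was 2.21 to 2.91 higher but under the background mark on every array. These 4 genes were higher on all 6 arrays under the other 3 scalings too, by as little as 0.35 for Ncstn after median centring, which also left Ncstn and Psenen under 2-fold on GT/M6.

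In the nucleus, Rbpj was lower on the native isoforms. Its signal was 11.74 on siEp300, 11.70 on siCtrl, 11.47 on GT/M2TAD, 10.70 on GT/M6, 11.12 on GT/M2 and 10.50 on GT/M1, against 12.24 on MEF. The 3 native isoforms, at -1.54 on GT/M6, -1.12 on GT/M2 and -1.74 on GT/M1, were past 2-fold and the other 3 arrays, at -0.77 to -0.50, were not, but GT/M2TAD reached -1.03 after median centring. Maml2, a coactivator of the Notch complex, was at least 2-fold lower on GT/M2TAD (-1.82), GT/M2 (-2.13) and GT/M1 (-1.29). It was at -0.98 on GT/M6, 0.06 on siEp300 and -0.28 on siCtrl. On GT/M6 it was past 2-fold under each of the other 3 scalings, at -1.31 to -1.19. Maml2 reached the background mark only on siEp300, siCtrl and MEF. Its differences on GT/M2TAD, GT/M6, GT/M2 and GT/M1 therefore rest in part on background. Tle3, a Groucho corepressor, was 0.95 higher on siEp300, 0.69 on siCtrl, 1.15 on GT/M2TAD, 1.68 on GT/M6, 1.59 on GT/M2 and 1.72 on GT/M1, and its signals were above the mark on all arrays. Numb, an inhibitor of Notch that sends the receptor for degradation, was 0.54 higher on siEp300, 0.30 on siCtrl, 1.14 on GT/M2TAD, 1.39 on GT/M6, 1.19 on GT/M2 and 1.32 on GT/M1, also above the mark. On GT/M2TAD it was under 2-fold after the other 3 scalings and on GT/M2 after median centring, and Tle3 was so on GT/M2TAD after quantile normalization and median centring. Numbl, the relative of Numb, ran the other way, at -1.89 to -0.71 and apart on 4 arrays, under the mark on every array.

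Of the 47 further genes of the list, 15 were above the mark on all 7 arrays and 31 on none. On a single array 23.7% to 29.6% of all named genes were above it. Lfng, Hes6 and Nrarp were among the 31. Lfng, a sugar transferase that tunes the response of Notch to its ligands, was lower on all 6 transduced arrays, at -2.80 to -1.98. Hes6, a Hes relative that opposes Hes1, was 1.93 to 2.90 higher. Nrarp, a feedback inhibitor induced by Notch, had differences of -1.21 to -0.18 and did not reach the floor on any array. Between transduced arrays 0 of the 57 genes were apart for GT/M2 and GT/M1 (3.29% of named genes) and 0 for GT/M6 and GT/M1 (0.938%). The count was 3 for GT/M6 and GT/M2, or 5.26% against 3.56% of named genes, and 2 for GT/M2TAD and GT/M2, or 3.51% against 6.30%. It was 6 for siCtrl and GT/M2TAD, or 10.5% against 9.42%, and 3 for siEp300 and siCtrl, or 5.26% against 2.32%. In the last of these Mib2, a ubiquitin ligase, and Hes5 were 1.13 and 1.11 higher on siEp300, and under each of the 3 other scalings 0 genes of the list were higher.

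**Figure D4:**
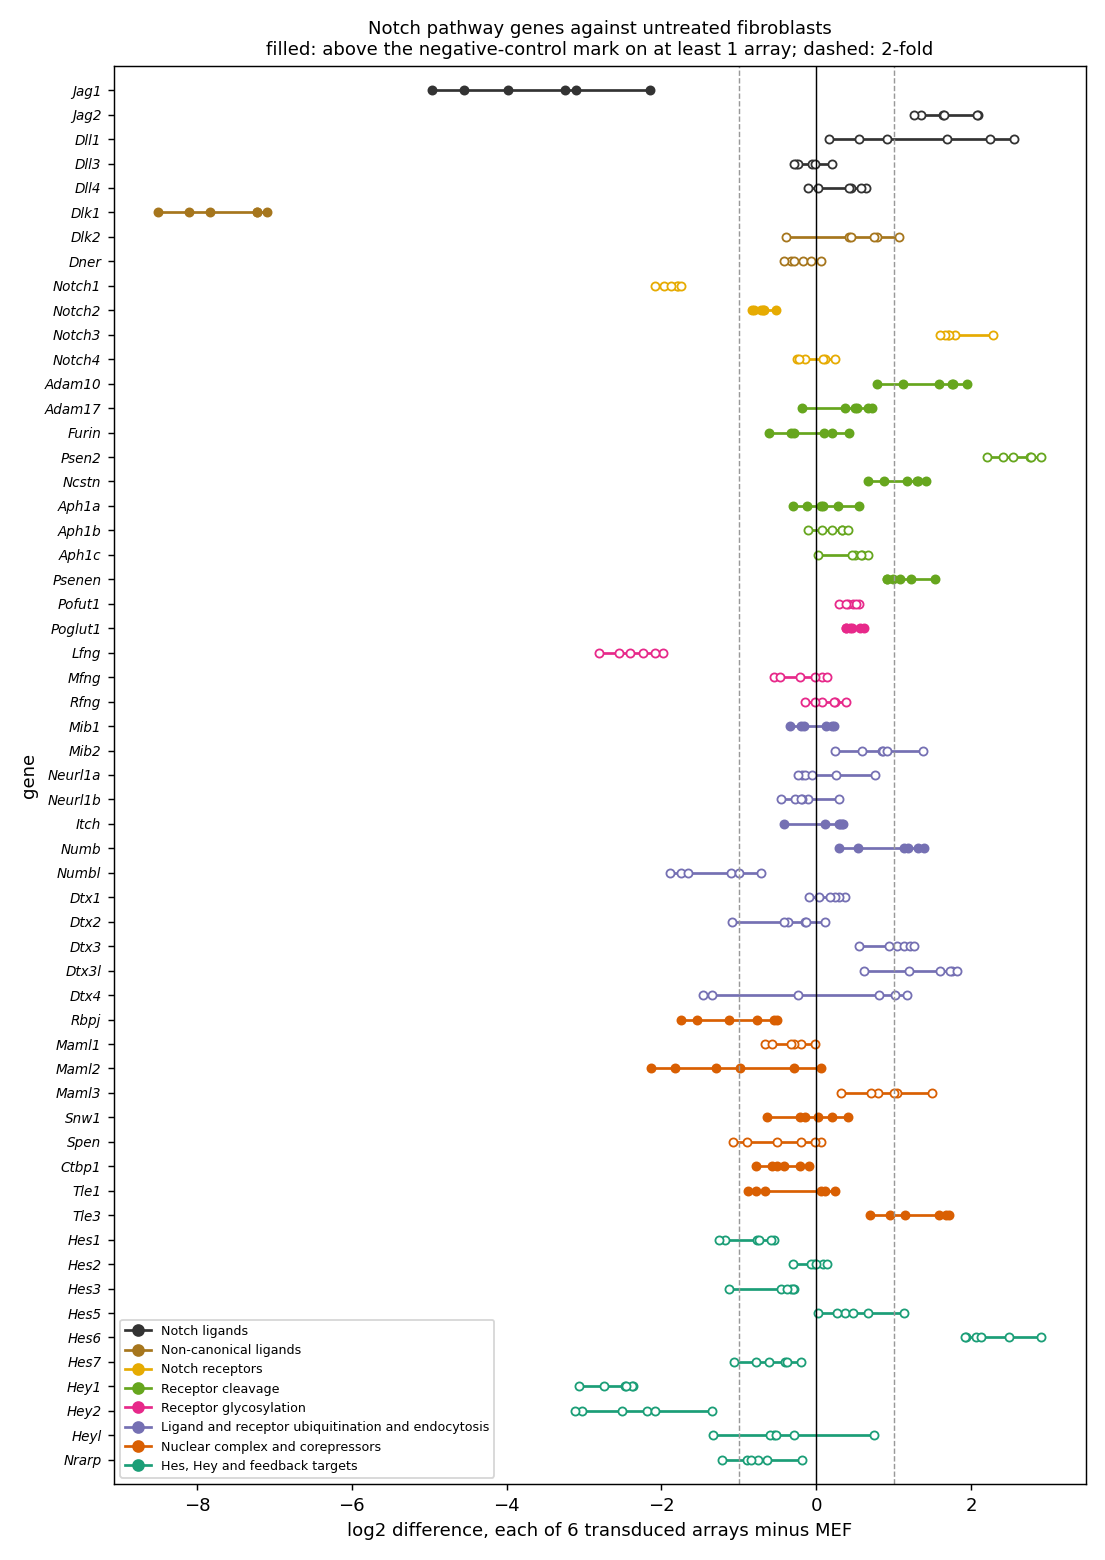
Log2 difference of each of 57 Notch pathway genes on the 6 transduced arrays from MEF, 1 point per array, coloured by role, with filled points for genes above the background mark on at least 1 array and dashed lines at 2-fold. Dlk1 stands apart on the lower side, at -8.50 to -7.09. Jag1 lies at -4.96 to -2.15, a range that overlaps those of Hey1, Hey2 and Lfng. Adam10, Ncstn and Psenen lie on the higher side.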

How the data were processed

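RNA of 7 cultures was measured on Affymetrix Clariom S mouse arrays, 1 array per group. The deposited values are log2 signals made by the authors, per the submitters' processing notes with Affymetrix Expression Console 1.4; the series text names SST-RMA. Scaling arrays together can mask a shift common to most genes, and signals near background understate differences in RNA. Of 28846 probe sets, 19572 had 1 gene symbol, covering 19505 genes; for 55 genes with several sets, the one with the highest mean was used. Differences were taken between pairs of arrays with pandas 2.3.3 on Python 3.11.15, and level-dependent centring used the lowess curve of statsmodels 0.14.6 with a span of 0.3. With 1 array per group, precision is limited by the number of arrays and no test was possible. Named genes were the 10 genes, genes of the pathway list, mainly those 2-fold apart, and the 3 closest profiles to each gene above the background mark; Nrarp, Furin, Adam17 and the Aph1 genes, apart on no array, were named for their role after their values were seen, and marker genes to show what moved beside a result. The genes and lists were chosen with earlier results of these data known. Alternatives were 3 other scalings, other floors, a 4-fold rule and another comparator. The size rule was tested on simulated data in which changes were placed only in genes well above the floor. That test does not cover genes near background. Positions are RefSeq's on GRCm38.p6; the authors' build is not given in the sources used here.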

Additional observations from a re-analysis of the deposited data

Results flagged for a closer look

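Dtx4, a Deltex ubiquitin ligase that acts on Notch, differed from MEF in opposite directions among the transduced arrays. It was lower on siEp300 (-1.46) and siCtrl (-1.34), and higher on GT/M6 (1.18) and GT/M1 (1.02), each past 2-fold as deposited. After quantile normalization, 0.89 on GT/M6 and 0.78 on GT/M1 were no longer past 2-fold, nor were 0.85 and 0.71 after median centring or 0.92 and 0.78 after level-dependent centring, while siEp300 and siCtrl stayed lower. Its signal was 5.29 on siEp300, 5.41 on siCtrl, 6.51 on GT/M2TAD, 7.93 on GT/M6, 7.56 on GT/M2 and 7.77 on GT/M1, against 6.75 on MEF, under the background mark on all of them. The difference was not tested, since each group held 1 array.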

How the results depend on the processing

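The count of genes apart among the 10 kept within 1.5 times under most settings. Quantile normalization gave 1 for GT/M2 minus GT/M1 (0 as deposited), 1 for GT/M6 minus GT/M2 (2) and 2 for siEp300 minus siCtrl (1), and level-dependent centring gave the same 1, 1 and 2. Median centring gave 2 for siEp300 minus siCtrl. With the background mark as the floor, 2 genes, Jag1 and Dlk1, were apart in each of the 6 comparisons with MEF, against 6 or 7. The same floor gave 1 for GT/M6 minus GT/M2, 0 for GT/M2TAD minus GT/M2, 1 for siCtrl minus GT/M2TAD and 0 for siEp300 minus siCtrl. With no floor, GT/M2TAD minus GT/M2 gave 2. A 4-fold rule gave 4 for siCtrl and 3 for GT/M2 and 4 for GT/M1 against MEF, 0 for GT/M6 minus GT/M2, 0 for GT/M2TAD minus GT/M2, 1 for siCtrl minus GT/M2TAD and 0 for siEp300 minus siCtrl. Against the mean of GT/M6, GT/M2 and GT/M1, GT/M2TAD gave 0. The cause was not tested where only the scaling differed. No called difference of the 10 genes changed sign. Of the wider pathway list, 5 genes in place of 8 were higher on GT/M2TAD than on MEF after quantile normalization and after median centring. Leaving out both siRNA arrays, chosen after seeing the data, kept 5 genes at least 2-fold lower than MEF throughout, and MEF was then highest for 8 of the 10 genes, against 7. Taking the mean over probe sets changed none of the 120 differences, since each gene had 1 probe set. Among negative-control probes at the floor, 26.8% to 54.1% were 2-fold apart, which limits what the 7 genes under the background mark can show. No paired analysis was possible because each group held 1 array.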

Other observations

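The siCtrl and MEF arrays held the same value to the last digit at 23 probe sets, 10 of which were among the 23 background sets of the array, and other pairs of arrays did so at 0 to 9. None of the 10 genes was among the 23.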
